A study of Homo sapiens with 6 samples.

Results

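NFE2L2, KEAP1, NQO1, GCLC, GCLM, GSR, TXNRD1, SRXN1, TXNIP and ME1 are 10 genes of the cell's thiol and NADPH defence, centred on the transcription factor NRF2. They were taken by symbol from a deposited table of 35009 human genes; each symbol had 1 row, and all 10 were among the 19944 genes with enough counts to test. The RNA came from macrophages made from the human monocytic leukaemia line THP-1 and given oxidised LDL (ox-LDL), a damaged lipoprotein that macrophages of the artery wall engulf. The siMCT4 group held 3 libraries of ox-LDL cells of the genotype MCT4 deficiency, and the control group held 3 libraries of ox-LDL cells of the genotype control. MCT4, encoded by SLC16A3, exports lactate and protons from glycolytic cells. The labels give no ox-LDL dose or time and do not mention a non-targeting siRNA in the controls, so loss of MCT4 and the siRNA treatment itself cannot be told apart. Nor do they state whether each library is a culture of its own, so the p-values cover the spread between these samples and no more. Every cell had ox-LDL, and no library without it was analysed here.

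NRF2 (encoded by NFE2L2) binds antioxidant response elements as a dimer with a small MAF protein. KEAP1 is the substrate adaptor of a CUL3 ubiquitin ligase that marks NRF2 for degradation in unstressed cells, and oxidants or electrophiles that modify KEAP1 cysteines let NRF2 accumulate, so much of its regulation is of the protein and not of the mRNA. Its targets make glutathione, reduce oxidised glutathione and thioredoxin, and supply the NADPH that both reductions use. In macrophages of the artery wall these systems meet lipid peroxides brought in with oxidised lipoprotein.

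The core of an antioxidant response element, spelled TGACNNNGC here, was searched on both strands in RefSeq promoters (GRCh38.p14, 250 bases before to 50 bases after each start), together with the AP-1 site TGACTCA and the E-box CACGTG that the TXNIP regulators MondoA and MLX can bind. Promoter windows were at hand for 9 of the 10 genes, GSR not among them. KEAP1, GCLM, TXNRD1 and ME1 held the core (4 of 9 genes), against 16.1% of the 27305 gene symbols with a promoter. The windows of NFE2L2, NQO1, GCLC, SRXN1 and TXNIP held none of the 3 motifs, which says only that these letters are not in those 300 bases. The AP-1 letters were found only in the ME1 window, inside its antioxidant response element core (6.05% of symbols held them), and no window held the E-box (8.77% of symbols). The windows of 3 genes whose RNA moved in different directions are shown 5′ to 3′ on the gene's strand, with the matches in capitals: ME1 (chr6:83431002-83431301, - strand) and GCLM (chr1:93909381-93909680, - strand), both lower in siMCT4 libraries, and TXNRD1, higher, with its upstream start (chr12:104215529-104215828, + strand) and downstream start (chr12:104286782-104287081, + strand).
ME1: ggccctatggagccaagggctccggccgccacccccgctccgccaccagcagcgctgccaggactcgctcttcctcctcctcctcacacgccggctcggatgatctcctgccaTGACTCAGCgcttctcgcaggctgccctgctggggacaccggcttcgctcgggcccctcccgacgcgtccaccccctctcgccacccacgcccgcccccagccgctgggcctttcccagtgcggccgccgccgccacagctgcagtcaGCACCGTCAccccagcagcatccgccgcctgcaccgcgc
GCLM: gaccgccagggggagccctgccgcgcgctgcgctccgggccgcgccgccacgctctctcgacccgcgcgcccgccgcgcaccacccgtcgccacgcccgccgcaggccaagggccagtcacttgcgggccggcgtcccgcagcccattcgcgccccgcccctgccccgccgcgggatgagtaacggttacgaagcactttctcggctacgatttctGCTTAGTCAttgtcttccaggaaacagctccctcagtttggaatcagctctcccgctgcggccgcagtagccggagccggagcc
TXNRD1 upstream start: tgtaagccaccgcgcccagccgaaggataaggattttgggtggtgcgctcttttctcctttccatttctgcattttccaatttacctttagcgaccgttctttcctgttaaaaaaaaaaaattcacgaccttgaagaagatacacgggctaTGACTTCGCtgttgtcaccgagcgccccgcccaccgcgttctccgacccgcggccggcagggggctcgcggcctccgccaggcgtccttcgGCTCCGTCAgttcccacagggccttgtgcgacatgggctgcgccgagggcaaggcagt
TXNRD1 downstream start: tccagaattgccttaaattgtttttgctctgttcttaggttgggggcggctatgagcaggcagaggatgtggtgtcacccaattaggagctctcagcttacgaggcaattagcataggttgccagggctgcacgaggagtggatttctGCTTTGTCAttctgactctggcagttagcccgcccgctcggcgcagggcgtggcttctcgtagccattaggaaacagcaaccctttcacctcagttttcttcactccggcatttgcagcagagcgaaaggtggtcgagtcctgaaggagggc
The core begins 137 bases before and 12 bases after the start in ME1, 34 bases before it in GCLM, 99 and 8 bases before the upstream start of TXNRD1 and 102 bases before the downstream one. A match of letters is a description and not a measured binding site.

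Total counts ran from 61880619 to 69103124 in siMCT4 libraries and from 65010219 to 69181938 in control libraries, and each of the 10 genes had at least 1750 counts in each library. SLC16A3, the targeted gene, had 10.8, 11 and 13.4 CPM (counts per 1000000, TMM scaled) in siMCT4 libraries 1, 2 and 3, against 115, 101 and 108 CPM in control libraries 1, 2 and 3, a log2 change of -3.20 (SE 0.102; adjusted p = 1.12e-06; -2.44 with the GC correction described next). The siMCT4 libraries differed from the controls with GC content: the 531 genes of 64% GC or more had median log2 ratios to the control mean of -1.13, -1.18 and -0.25 in siMCT4 libraries 1, 2 and 3, so library 3 stood apart. Results were therefore also fitted after removing that trend, and without siMCT4 library 3. The macrophage and monocyte markers were present in all libraries, with summed levels of 4706 to 4956 CPM in siMCT4 and 5639 to 5705 CPM in control libraries, and 7 of the 11 were lower. Summed markers of other cells were at 32.7 to 43.9 CPM (T and NK cells; 4 of 7 markers measured, mostly GNLY), 8.94 to 10.1 CPM (B cells; 4 of 5), 8.08 to 35.1 CPM (fibroblasts; 5 of 6), 356 to 366 CPM (endothelium; 5 of 6, mostly PECAM1), 0.24 to 5.03 CPM (epithelium; 5 of 5) and 0 to 0.141 CPM (erythroid cells; 3 of 5) in siMCT4 libraries. In the same order, the sums were 75.5 to 94.7, 2.7 to 3.15, 5.4 to 7.89, 664 to 685, 0.141 to 0.285 and 0.0939 to 0.269 CPM in control libraries. The part of these marker levels in the results was not tested.

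Of the 10 genes, 3 rose in siMCT4 cells (TXNIP, NFE2L2 and TXNRD1), 2 fell (ME1 and GCLM), and 5 did not pass the test (KEAP1, NQO1, GCLC, GSR and SRXN1). Changes and adjusted p-values are those of the quasi-likelihood test of edgeR, adjusted by Benjamini-Hochberg over all 19944 genes and called under 0.05. Among all tested genes 41.4% were called, 20.6% higher and 20.8% lower, so 5 calls among 10 genes is a share near that of the transcriptome. The lowest and highest libraries of the groups were separate for the same 5 genes, 3 with siMCT4 above and 2 with siMCT4 below, against 55.0% of all tested genes (27.2% above and 27.8% below). The median log2 change of the 10 was 0.05, against -0.01 for all tested genes. The calls of TXNIP, NFE2L2, TXNRD1 and ME1 held in all 18 alternative fits tried, and that of GCLM in 4 of 18. Among these 18, the fit of siMCT4 library 3 alone against the controls has a lone siMCT4 sample. Its calls are no test, here or in later counts out of 18.

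**Figure D1:**
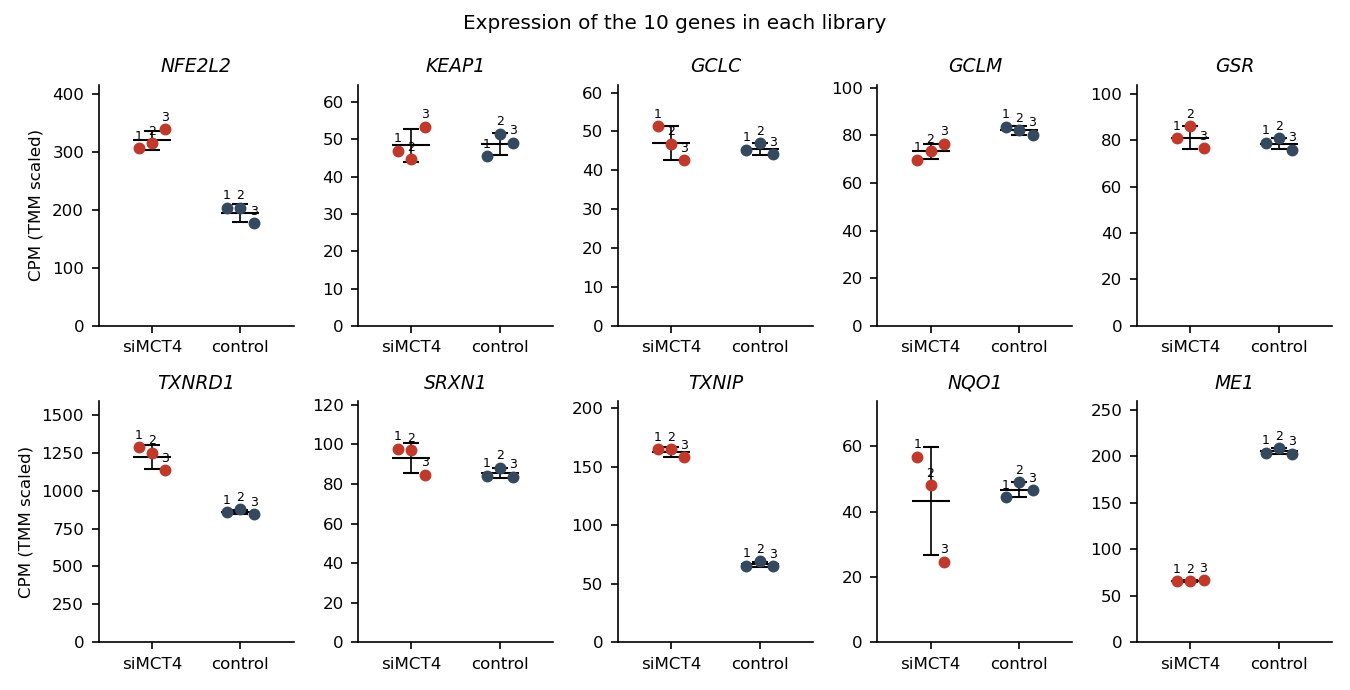
Expression of the 10 genes in CPM (TMM scaled; linear axes from 0) in each library, siMCT4 left and control right; numbers mark the libraries, and horizontal lines with bars give the mean and SD of 3 libraries. TXNIP, NFE2L2 and TXNRD1 lie higher and ME1 lower in all siMCT4 libraries than in any control, and NQO1 in siMCT4 library 3 lies at 24.7 CPM, below the 5 other libraries.

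NFE2L2, the gene of NRF2 (GRCh38 chromosome 2, 177218667 to 177392697, - strand), had 307, 315 and 339 CPM in siMCT4 libraries 1, 2 and 3, against 204, 204 and 177 CPM in control libraries. All siMCT4 libraries lay above all controls. The level averaged 320 ± 16.8 CPM in siMCT4 and 195 ± 15.7 CPM in control libraries (SD, n = 3 each), a 1.64-fold rise (log2 change 0.72, SE 0.070; adjusted p = 0.000187; 0.65 to 0.91 over the alternatives). In bulk RNA, fewer or more cells that express a gene and less or more RNA per cell cannot be told apart. The table's NFE2L2 interval overlaps 9 other rows, 4 of them on the opposite strand, of which HNRNPA3, an RNA-binding protein gene named after its values were seen, is abundant (median 21208 counts). HNRNPA3 had 307, 300 and 311 CPM in siMCT4 and 297, 337 and 351 CPM in control libraries (log2 change -0.10, SE 0.065, adjusted p = 0.259). The level counted to HNRNPA3 itself thus did not rise. Whether the counting used the strand, and how reads in the overlap were assigned, is not given in the sources used here. The part of such reads in the NFE2L2 rise was therefore not tested.

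KEAP1, the repressor of NRF2 (chromosome 19, 10486125 to 10503356, - strand), had 46.9, 44.7 and 53.4 CPM in siMCT4 libraries, against 45.5, 51.5 and 49.1 CPM in control libraries. The groups overlapped, and the log2 change was -0.01 (SE 0.0831; adjusted p = 0.933). KEAP1 has a GC content of 61.6%, and with the GC correction it was higher in siMCT4 (log2 change 0.37; adjusted p = 0.00237; 0.37 and 0.0126 with the replicate block as well). Its sign also varied with the scaling, between -0.01 with TMM and 0.185 on TPM.

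Around this pair, 18 other regulators and partners of NRF2 were tested: 10 rose, 3 fell and 5 did not pass, with a median log2 change of 0.33 against -0.01 for all tested genes. Of all tested genes, 20.6% were called higher and 20.8% lower. MAFF, a small MAF partner without a transactivation domain, had 122, 131 and 106 CPM in siMCT4 against 50.6, 53.7 and 63.1 CPM in control libraries (log2 change 1.10, SE 0.106; adjusted p = 0.000173). The other small MAF genes had lower values in siMCT4 libraries. MAFG changed by -0.37 (adjusted p = 0.00148), but by 0.02 with the GC correction (adjusted p = 0.904). MAFK had 12.7, 11.1 and 32.3 CPM in siMCT4 libraries, against 41, 44.3 and 46.1 CPM in control libraries (log2 change -1.23, SE 0.379; adjusted p = 0.0355), and -1.88 without siMCT4 library 3 and -0.69 with the GC correction; its adjusted p was 0.0796 to 0.102 when any other library was left out. BTRC, a substrate receptor of an E3 ligase that targets NRF2 independently of KEAP1, rose by 0.66 on the log2 scale (adjusted p = 0.000758). SQSTM1, the autophagy receptor p62 that sequesters KEAP1, rose by 0.34 (adjusted p = 0.00105; 0.69 with the GC correction). BACH1, the heme-sensitive repressor that competes for the same DNA elements, stayed within its spread (log2 change 0.02, SE 0.0484; adjusted p = 0.74). CUL3 at 0.32, the NRF2 coactivator gene EP300 at 0.61 and the related factor NFE2L3 at 0.50 were also higher, with adjusted p-values of 0.00105, 0.000159 and 0.00327. GSK3B was lower (log2 change -0.22, adjusted p = 0.0147), a call kept in 8 of the 18 alternatives. CUL3, EP300, NFE2L3 and GSK3B were named after their values were seen.

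GCLC and GCLM encode the catalytic and modifier subunits of glutamate-cysteine ligase, the rate-limiting enzyme of glutathione synthesis. GCLC (chromosome 6, 53497341 to 53616970, - strand) had 51.3, 46.9 and 42.6 CPM in siMCT4 libraries, against 45.3, 47.0 and 44.1 CPM in control libraries. The groups overlapped (log2 change 0.05, SE 0.0767; adjusted p = 0.674). GCLM (chromosome 1, 93885199 to 93909456, - strand) had 69.8, 73.4 and 76.4 CPM in siMCT4 libraries, against 83.6, 82.2 and 80.2 CPM in control libraries. Every siMCT4 library lay below every control, and GCLM was 1.12-fold lower in siMCT4 (log2 change -0.16, SE 0.0514; adjusted p = 0.0378). That call was lost in 14 of the 18 alternatives: DESeq2 gave an adjusted p of 0.0594, and leaving out any library other than siMCT4 library 3 gave 0.0779 to 0.17.

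GSR, glutathione reductase, which regenerates reduced glutathione with NADPH, had 80.7, 86.1 and 76.5 CPM in siMCT4 libraries, against 78.9, 80.7 and 75.9 CPM in control libraries (GRCh38 chromosome 8, 30678066 to 30727846, - strand). The groups overlapped, and the log2 change was 0.05 (SE 0.058; adjusted p = 0.557). Neither GCLC nor GSR differed beyond the spread of the libraries.

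Of 15 other genes that make or break down glutathione, 3 rose, 5 fell and 7 did not pass (median log2 change -0.11). The shares over all tested genes were 20.6% higher and 20.8% lower. GSS, the second enzyme of synthesis, was at -0.11 (SE 0.0936; adjusted p = 0.378), and SLC7A11, the cystine importer, was at 0.06 (SE 0.0488; adjusted p = 0.361). The genes that rose included surface and cytosolic peptidases. ANPEP, aminopeptidase N or CD13, which splits the cysteinylglycine left by glutathione breakdown, had 5190, 5212 and 4980 CPM in siMCT4 against 1115, 1081 and 1041 CPM in control libraries (4.75-fold; log2 change 2.25, SE 0.0431; adjusted p = 1.51e-07), and LAP3, leucine aminopeptidase, rose by 1.07 (adjusted p = 7.13e-05). CHAC1, which cleaves cytosolic glutathione and is a target of ATF4, fell by 1.32 (SE 0.225; adjusted p = 0.00277). The log2 change of CHAC1 was -0.89 with the GC correction and -1.65 without siMCT4 library 3. OPLAH, which opens the 5-oxoproline ring formed in that breakdown, had 5.25, 5.24 and 13.4 CPM in siMCT4 against 32.5, 29.5 and 29.9 CPM in control libraries; its log2 change was -1.94 (adjusted p = 0.00401), -2.55 without siMCT4 library 3 and -1.33 with the GC correction.

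Among 26 glutathione peroxidases, transferases, glutaredoxins and glyoxalase genes, 1 rose, 12 fell and 13 did not pass, with a median log2 change of -0.42. Of all tested genes, 20.6% were called higher and 20.8% lower. GPX1, the cytosolic selenoprotein that reduces hydrogen peroxide, had 91.2, 88.8 and 140 CPM in siMCT4 libraries, against 190, 193 and 232 CPM in control libraries (log2 change -0.95, SE 0.179; adjusted p = 0.00455; -0.46 with the GC correction). GPX4, which reduces phospholipid hydroperoxides, had 54.3, 55.4 and 90.6 CPM in siMCT4 against 105, 100 and 113 CPM in control libraries (log2 change -0.67, SE 0.192; adjusted p = 0.0271), a call lost with the GC correction (-0.17; adjusted p = 0.132) and on leaving out any library other than siMCT4 library 3 (0.0644 to 0.092). GSTM4 fell by 0.83 (adjusted p = 0.000121), as did, named after their values were seen, GSTM1 by 0.64, GSTM2 by 0.62 and GSTM3 by 0.53 (adjusted p-values 0.000518, 0.00194 and 0.0178); these are paralogues, and how reads that match more than 1 of them were counted is not given, so their separate levels are uncertain; GSTM3 lost its call without control library 2 or 3 (0.0664 and 0.0638). The glutaredoxin genes GLRX (-0.57) and GLRX5 (-0.69) and the glyoxalase gene GLO1 (-0.62), named in the same way, also fell (adjusted p-values 0.00631, 0.00182 and 0.000193). MGST1, a microsomal transferase that also reduces lipid peroxides, was the 1 gene that rose (log2 change 0.31, adjusted p = 0.00457). Its call was lost with the replicate block and GC correction together (0.24, adjusted p = 0.0555).

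TXNRD1, cytosolic thioredoxin reductase, is a selenoprotein that recharges thioredoxin with NADPH (chromosome 12, 104215779 to 104350307, + strand). It had 1285, 1250 and 1135 CPM in siMCT4 libraries, against 856, 876 and 844 CPM in control libraries. All siMCT4 libraries lay above all controls, with means of 1223 ± 78.4 CPM in siMCT4 and 859 ± 16 CPM in control libraries (SD, n = 3 each). The rise was 1.42-fold (log2 change 0.51, SE 0.0532; adjusted p = 0.000259; 0.40 to 0.71 over the alternatives). The ribosomal pseudogene RPL18AP3 overlaps it on the same strand with at most 2.09% of its counts.

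TXNIP, the arrestin-fold protein that binds and inhibits reduced thioredoxin and restrains glucose uptake, moved the same way (chromosome 1, 145992435 to 145996579, - strand). It had 165, 165 and 158 CPM in siMCT4 libraries, against 65.5, 69.4 and 65.0 CPM in control libraries. No library of one group came near the other: the means were 163 ± 3.81 CPM in siMCT4 and 66.6 ± 2.42 CPM in control libraries (SD, n = 3 each). The rise was 2.44-fold (log2 change 1.29, SE 0.0476; adjusted p = 2.3e-06), with 1.23 to 1.48 over the alternatives, and it ranked 926 by size among the 4116 genes that rose. The reductase of thioredoxin and its inhibitor were thus both higher in the same libraries.

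SRXN1, sulfiredoxin, which repairs overoxidised peroxiredoxins (chromosome 20, 646615 to 653200, - strand), had 97.8, 97.2 and 84.6 CPM in siMCT4 libraries, against 84.2, 88.2 and 83.6 CPM in control libraries. Libraries 1 and 2 of siMCT4 lay above all controls and library 3 lay among them. The log2 change was 0.13 (SE 0.0666; adjusted p = 0.17). Without siMCT4 library 3 it was 0.19 (adjusted p = 0.00676), and SRXN1 was called higher in 6 of the 18 alternatives.

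Of 23 other genes of the thioredoxin system, 2 rose, 12 fell and 9 did not pass (median log2 change -0.32). The shares over all tested genes were 20.6% higher and 20.8% lower. TXN, thioredoxin itself, had 151, 158 and 119 CPM in siMCT4 against 123, 120 and 160 CPM in control libraries, with overlapping groups (log2 change 0.08, SE 0.141; adjusted p = 0.67). TXNRD2, the mitochondrial reductase, changed by -0.40 (adjusted p = 0.0149), a call lost with the GC correction (-0.20; adjusted p = 0.169) and without control library 2 (0.0672). PRDX1, a cytosolic peroxiredoxin that thioredoxin reduces, did not pass (log2 change -0.19, SE 0.109; adjusted p = 0.201). The other peroxiredoxin genes, named after their values were seen, were all lower: PRDX2 by a log2 change of -0.84, PRDX3 by -0.42, PRDX5 by -0.69 and PRDX6 by -0.35 (adjusted p-values 0.000157, 0.00268, 0.00695 and 0.00126), while PRDX4 at -0.32 (adjusted p = 0.0412) lost its call when any library other than siMCT4 library 3 was left out (0.0981 to 0.151) and PRDX5 lost it with the GC correction (-0.36; adjusted p = 0.134). RRM1 and RRM2, subunits of ribonucleotide reductase that thioredoxin can reduce, fell by 0.91 and by 2.17 (adjusted p-values 0.00156 and 0.00527). The genes that rose were TXNL1, a thioredoxin-like protein of the proteasome (0.24, adjusted p = 0.00557), and SESN1, a sestrin (0.51, adjusted p = 0.000394). TXNL1 lost its call with the replicate block and GC correction together (0.18, adjusted p = 0.0555).

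TXNIP is a classic target of MondoA (MLXIP) with its partner MLX, which read glucose 6-phosphate and acid in other cell types, so its relatives and that axis were examined. Over all tested genes, 20.6% were called higher and 20.8% lower. Of the 14 genes tested here, 2 rose, 6 fell and 6 did not pass (median log2 change -0.22). The 2 were ARRDC4, the arrestin-domain gene closest to TXNIP and a shared MondoA target, with 66.2, 61.8 and 67.5 CPM in siMCT4 against 34.5, 34.7 and 30.9 CPM in control libraries (1.95-fold; log2 change 0.97, SE 0.068; adjusted p = 3.81e-05), and MLXIP itself (log2 change 0.39, SE 0.0432; adjusted p = 0.000355). ARRDC3 did not pass (-0.12, SE 0.0599; adjusted p = 0.15) but did with the GC correction (-0.18; adjusted p = 0.0386), and ARRDC2 changed by -0.63 (adjusted p = 0.00175) but by -0.01 with the GC correction (adjusted p = 0.964). MLX, named after its values were seen, fell by 0.30 (adjusted p = 0.00248). DDIT4, or REDD1, which forms a complex with TXNIP, moved opposite to it, with 20.9, 19.2 and 31.8 CPM in siMCT4 against 79.1, 85.0 and 89.6 CPM in control libraries (log2 change -1.82, SE 0.185; adjusted p = 0.000227).

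**Figure D2:**
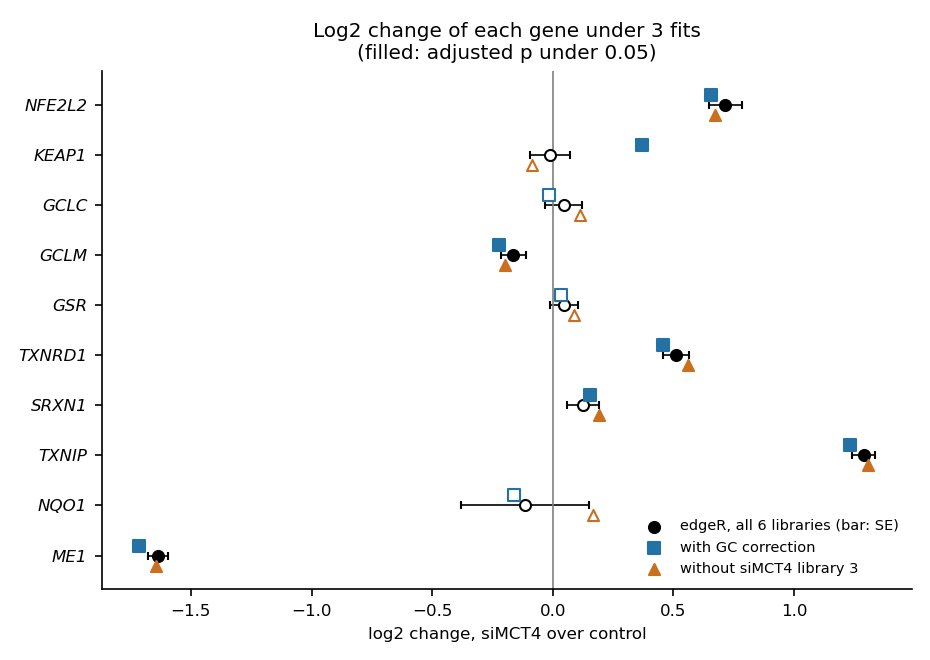
Log2 change of each of the 10 genes, siMCT4 over control, from edgeR on all 6 libraries (circles, bars give the SE), with the GC correction (squares) and without siMCT4 library 3 (triangles); filled symbols have an adjusted p under 0.05. TXNIP at 1.29, NFE2L2 at 0.72, TXNRD1 at 0.51 and ME1 at -1.64 keep their sign and call in all 3 fits, while KEAP1, NQO1 and GCLC change sign.

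ME1, cytosolic malic enzyme, which makes NADPH while turning malate into pyruvate and serves lipid synthesis as well as antioxidant reduction, had the largest change of the 10 by edgeR (chromosome 6, 83210402 to 83431051, - strand). It had 65.5, 65.7 and 66.8 CPM in siMCT4 libraries, against 204, 209 and 203 CPM in control libraries. The means were 66.0 ± 0.697 CPM in siMCT4 and 205 ± 2.93 CPM in control libraries (SD, n = 3 each), 3.11-fold lower in siMCT4 (log2 change -1.64, SE 0.0404; adjusted p = 3.91e-07). It ranked 535 by size among the 4144 genes that fell, and its log2 change stayed between -1.72 and -1.42 over the alternatives. ME1 and TXNRD1, both known NRF2 targets with the element's core in their promoter windows, thus moved in opposite directions.

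Of 18 other genes that supply NADPH, 4 rose, 7 fell and 7 did not pass (median log2 change -0.05). The shares over all tested genes were 20.6% higher and 20.8% lower. IDH1, cytosolic isocitrate dehydrogenase, another source of cytosolic NADPH, had 390, 391 and 376 CPM in siMCT4 libraries, against 179, 171 and 177 CPM in control libraries (2.2-fold; log2 change 1.13, SE 0.0408; adjusted p = 2.06e-06). NADK, the cytosolic kinase that turns NAD into NADP, rose by 0.60 (adjusted p = 0.000181). NNT, the mitochondrial transhydrogenase, fell by 0.80 (SE 0.0489; adjusted p = 1.93e-05). PGLS, the lactonase of the pentose phosphate pathway, changed by -0.88 (adjusted p = 0.00463), a call lost with the GC correction (-0.33; adjusted p = 0.13).

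NQO1, a quinone reductase much used as an indicator of NRF2 activity (chromosome 16, 69706996 to 69726584, - strand), had 56.8, 48.0 and 24.7 CPM in siMCT4 libraries, against 44.5, 49.0 and 46.5 CPM in control libraries. The siMCT4 libraries spread far more than the controls, with library 1 above and library 3 below all controls. The log2 change was -0.11 (SE 0.265; adjusted p = 0.767). Against the control mean the log2 ratios were 0.28, 0.04 and -0.92 in siMCT4 libraries 1, 2 and 3. Without siMCT4 library 3 the change was 0.17 (adjusted p = 0.121). No direction for NQO1 can be read from these libraries together.

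**Figure D3:**
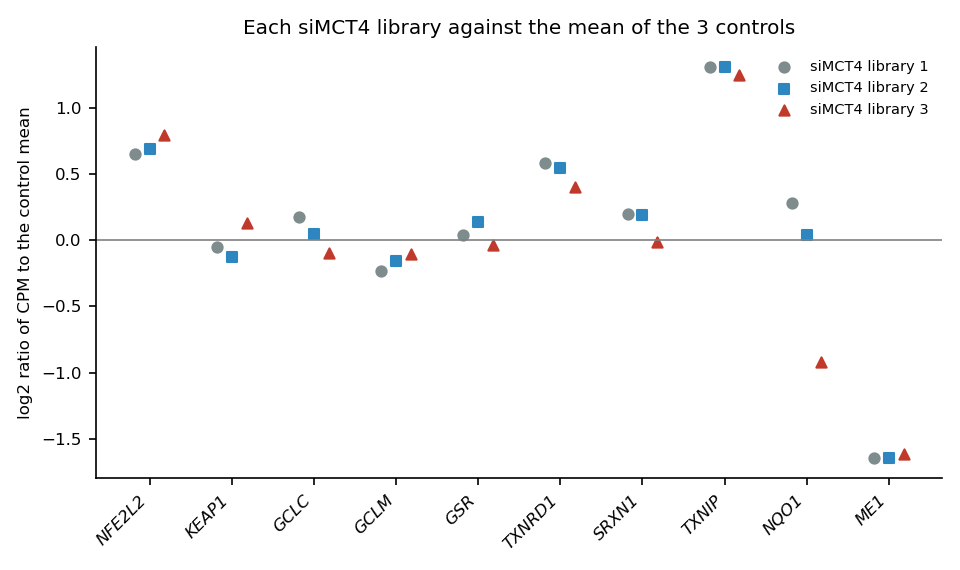
Log2 ratio of CPM to the mean of the 3 controls for each of the 10 genes in siMCT4 libraries 1, 2 and 3. The 3 libraries lie close together for TXNIP (1.25 to 1.31) and ME1 (-1.65 to -1.62), and NQO1 lies at -0.92 in library 3 against 0.28 and 0.04 in libraries 1 and 2.

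Beyond NQO1, 31 other NRF2 targets were tested: 6 rose, 8 fell and 17 did not pass, with a median log2 change of -0.03. Of all tested genes, 20.6% were called higher and 20.8% lower. HMOX1, heme oxygenase, had 953, 855 and 1142 CPM in siMCT4 libraries, against 606, 612 and 627 CPM in control libraries (1.6-fold; log2 change 0.68, SE 0.0975; adjusted p = 0.00124). BLVRB, which reduces flavins and biliverdin isomers other than the one heme oxygenase makes, had 20.4, 17.8 and 26.6 CPM in siMCT4 against 67.8, 69.7 and 78.7 CPM in control libraries (log2 change -1.74, SE 0.147; adjusted p = 9.27e-05). The ferritin heavy chain gene FTH1 fell by 1.08 (SE 0.0629, adjusted p = 1.58e-05), and the light chain gene FTL, named after its values were seen, fell by 0.45 (adjusted p = 0.00031). With limma the FTL call was lost on log2(FPKM + 1) (-0.34, adjusted p = 0.321), log2(FPKM + 0.1) (-0.34, adjusted p = 0.323) and log2(TPM + 1) (-0.24, adjusted p = 0.473). ABCC3, a pump for glutathione and glucuronide conjugates, rose by 0.47 (adjusted p = 0.000638). The median log2 ratios of the 31 genes were 0.01, 0.04 and -0.24 in siMCT4 libraries 1, 2 and 3. Without siMCT4 library 3, 10 rose and 9 fell, while among all tested genes 4528 rose and 5019 fell.

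Of 12 genes that make or remove superoxide and peroxide, 2 rose, 4 fell and 6 did not pass (median log2 change -0.13). The shares over all tested genes were 20.6% higher and 20.8% lower. SOD2, the mitochondrial superoxide dismutase, had 275, 280 and 264 CPM in siMCT4 against 177, 178 and 186 CPM in control libraries (log2 change 0.60, SE 0.0439; adjusted p = 4.7e-05). RAC2, a GTPase that activates the phagocyte NADPH oxidase, fell by 0.69 (SE 0.0436; adjusted p = 2.27e-05; -0.27 with the GC correction), and PARK7 (DJ-1) by 0.84 (adjusted p = 0.00373). CYBB, the catalytic subunit of that oxidase, changed by -0.27 (adjusted p = 0.0122), a call lost without control library 1 or 2 (0.0639 and 0.0685). CAT, catalase, was at -0.14 (adjusted p = 0.0457), a call that no fit with a library left out kept (0.0508 to 0.19).

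**Figure D4:**
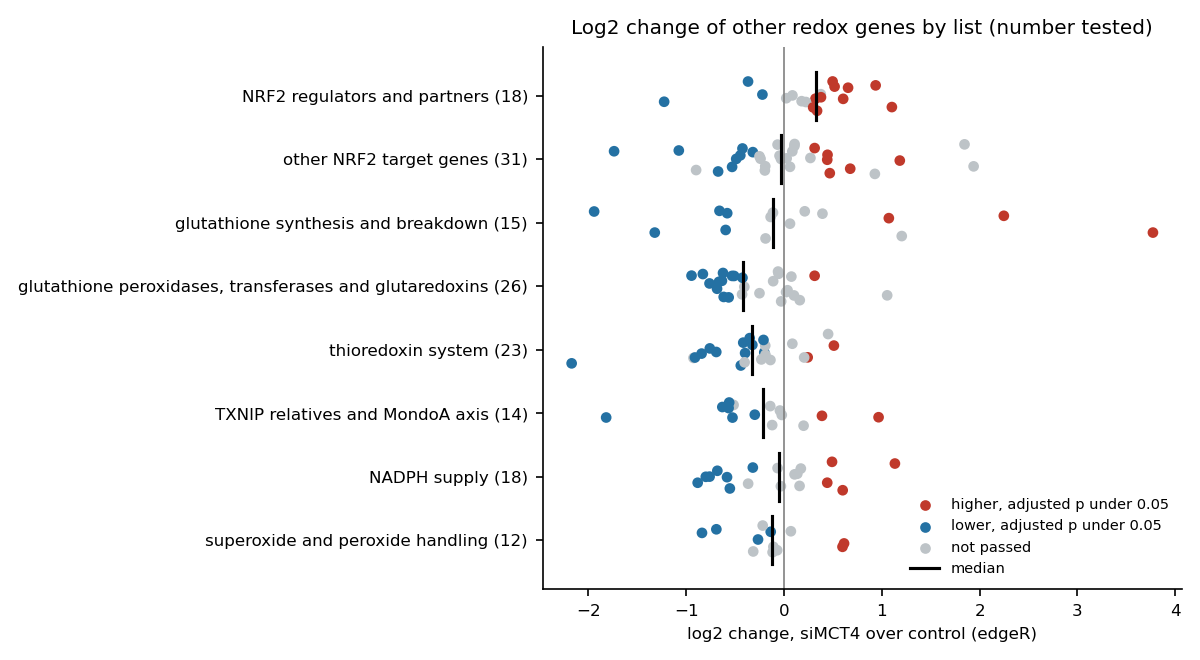
Log2 change of the other genes of 8 redox lists, siMCT4 over control, with 1 point per tested gene (vertical scatter within a list is for display); colours mark genes higher, lower or not passed at an adjusted p under 0.05, and black bars the list medians. The regulators and partners of NRF2 have a median of 0.33, and the glutathione peroxidases, transferases and glutaredoxins one of -0.42.

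Levels were compared between genes per length, in the deposited FPKM (fragments per kilobase per 1000000). In siMCT4 libraries TXNRD1 was highest at 176 ± 11.6 FPKM, followed by TXNIP at 43.6 ± 1.11, SRXN1 at 35.6 ± 2.92, GSR at 21.7 ± 1.33, NFE2L2 at 20.6 ± 1.04, ME1 at 19.1 ± 0.164, NQO1 at 14.0 ± 5.42, KEAP1 at 13.1 ± 1.2, GCLM at 13.0 ± 0.565 and GCLC at 5.25 ± 0.497 FPKM (SD, n = 3 each). In control libraries the order was TXNRD1 at 115 ± 3.41, ME1 at 55.1 ± 1.39, SRXN1 at 30.2 ± 1.21, GSR at 19.5 ± 0.817, TXNIP at 16.6 ± 0.781, NQO1 at 14.1 ± 0.796, GCLM at 13.5 ± 0.382, KEAP1 at 12.2 ± 0.844, NFE2L2 at 11.7 ± 1.04 and GCLC at 4.72 ± 0.203 FPKM. TXNIP followed TXNRD1 in siMCT4 cells, while ME1 held that place in controls. GSR and NFE2L2 overlapped in siMCT4 libraries and could not be ordered beyond their spread, and neither could NQO1, KEAP1 and GCLM. In control libraries the same held for NQO1 with GCLM, GCLM with KEAP1, and KEAP1 with NFE2L2. The FPKM of NFE2L2 rests on a length of 16240 bases, 5.69 times its longest GENCODE 29 transcript of 2853 bases, and that of GCLC on 9354 bases, 2.45 times its longest, so the levels of both per length are uncertain.

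Among 131 other genes of the lists, the one whose log2(CPM + 1) over the 6 libraries was most like that of NFE2L2 was ARRDC4 (Pearson r = 0.991), that of TXNIP was ANPEP (r = 0.999) and that of KEAP1 was CBR1 (r = 0.837). These values describe 6 points in 2 groups of 3 that share libraries and scaling, so for NFE2L2 and TXNIP they mostly restate the difference between the groups. KEAP1 and CBR1 both had their highest level in siMCT4 library 3, at 53.4 and 21.5 CPM. CBR1 was at 15.6 and 15.4 CPM in siMCT4 libraries 1 and 2 and at 15.7, 16.9 and 16.1 CPM in controls. Their value is thus the highest of 131 and leans on that library.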

How the data were processed

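Per the labels' protocols, polyA RNA of 3 siMCT4 and 3 control libraries went through a dUTP kit that marks strand and paired-end sequencing. Trimming with cutadapt 1.9 and alignment to GRCh38 with HISAT2 2.2.1 are named in the submitters' processing notes; how genes were counted, with which annotation and strand setting, is not given in the sources used here. Raw counts and FPKM stand side by side per gene and library in the deposited table, per the file headers, with 0 value columns unused. The authors' FPKM is the count over a gene length and a library factor. Between 2 and 41, 58.7% to 60.9% of counts were even, so a fragment may have been counted at both mates.

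The counts as deposited were fitted with edgeR 4.0.16 (R 4.3.3; TMM scaling, quasi-likelihood test, two-sided, group as the sole factor, Benjamini-Hochberg adjustment), for genes that passed filterByExpr (count 10, total 15). The SE is the log2 change over the square root of F. Alternatives used DESeq2 1.42.0, RLE scaling, library totals alone, no filter, a smallest count of 50, limma 3.58.1 on log2(FPKM + 1), log2(FPKM + 0.1) and log2(TPM + 1), a lowess correction for gene GC content (span 0.3; GC known for 96.8% of tested genes), the replicate block, both together, each library left out in turn, and siMCT4 library 3 alone against the controls. The steps were also run on simulated counts with known changes. Those counts had few changed genes, a single dispersion and no GC trend. They therefore cannot show how well the GC correction works on data like these.

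The 10 genes and the 8 lists were chosen with earlier results of these data known. Besides the 10 and SLC16A3, the rule names up to 2 called genes higher and 2 lower by size per list with a mean of at least 1 FPKM in the higher group, a fixed set of genes whatever their values, and the genes most like NFE2L2, KEAP1 and TXNIP. Genes outside it are said to be named after their values were seen, and some that it takes are left out here. A planned look-up of KEAP1-binding letters in the NRF2 protein was not run, as no protein sequences were used here.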

Additional observations from a re-analysis of the deposited data

How the results depend on the processing

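Of the 10 genes and SLC16A3, TXNIP, NFE2L2, TXNRD1, ME1 and SLC16A3 kept direction and call in all 18 alternatives, and the cause of the other changes was not tested. In the fit of siMCT4 library 3 alone, that lone sample is assumed to vary like the controls, so its values carry no test of their own. KEAP1, at -0.01 in the edgeR fit, was at 0.002 with DESeq2, RLE scaling and a smallest count of 50, 0.075 (library totals), 0.089 (FPKM + 1), 0.095 (FPKM + 0.1), 0.185 (TPM), 0.372 (GC correction), 0.373 (block and GC) and 0.133 (siMCT4 library 3 alone), and spanned -0.088 to 0.047 with a library left out. NQO1 was at 0.006 on TPM, was at -0.919 for siMCT4 library 3 alone and spanned -0.362 to 0.166 with a library left out. GCLC was at -0.015 with the GC correction, -0.018 with block and GC, -0.094 for siMCT4 library 3 alone, and -0.023 to 0.111 with a library left out. GCLM lost its call at -0.15 (DESeq2 and RLE), -0.077 (library totals), -0.052 (FPKM + 1), -0.055 (FPKM + 0.1), -0.16 (no filter) and -0.10 (siMCT4 library 3 alone), turned to 0.036 on TPM, and spanned -0.196 to -0.130 with a library left out. GSR was called at 0.24 on TPM and was at -0.037 for siMCT4 library 3 alone. SRXN1 was called at 0.16 (GC), 0.21 (library totals), 0.226 (FPKM + 1), 0.232 (FPKM + 0.1) and 0.32 (TPM), was at -0.013 for siMCT4 library 3 alone, and spanned 0.091 to 0.192 with a library left out.

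TPM moved the median of all tested genes by 0.13 (log2), so its changes are relative to that; 68.4% of its calls were higher (6245 genes), 59.9% on log2(FPKM + 0.1), against 49.8% in the edgeR fit (4116 of 8260). Outside the 10, signs turned for ARRDC3 (0.077), CAT (0.064), GSS (0.082) and PRDX1 (0.005) on TPM, for BACH1 (-0.038; -0.039 with the block, 0.000 to 0.059 with a library left out), SLC7A11 (-0.030), TXN (-0.006; -0.009 with the block, -0.18 for library 3 alone) and MAFG (0.017; 0.011 with the block) with the GC correction. Counts that moved by over 1.5 times follow. Of the 10 genes, 5 rose with the GC correction and on TPM, and 1 fell with DESeq2, RLE, library totals, FPKM, TPM, no filter and the block, and 1 to 2 with a library left out. On TPM 1 NRF2 regulator fell (1 to 3 with a library left out), 11 NRF2 targets rose and 2 fell (6 to 10 rose with a library left out; 15 fell for library 3 alone), 8 NADPH genes rose (7 on FPKM + 0.1), and 3 peroxidase and transferase genes rose and 7 fell (0 rose with block and GC; 1 to 3 with a library left out). Of glutathione synthesis genes 6 rose with library totals, FPKM or TPM (2 to 5 with a library left out) and 3 fell on TPM. Of the thioredoxin system 7 fell on FPKM, on TPM and with block and GC (1 rose in that fit; 7 to 11 fell with a library left out). Of TXNIP relatives 3 fell with block and GC, and of superoxide genes 2 fell with library totals, FPKM or TPM (2 to 4 with a library left out).

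Same-numbered libraries correlated at -0.0862, -0.000323 and -0.0838 in their deviations over 14076 genes. A small effect shared by a pair could be hidden in these values, so they cannot decide whether library numbers pair the samples. With the replicate block, GCLM was at -0.16 (adjusted p = 0.102) and no other call among the 10 changed, and of all genes 3341 rose and 3580 fell.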

Other observations

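Some other NRF2 targets were, like NQO1, lowest in siMCT4 library 3; these genes were chosen after their values were seen, and the cause was not tested. AKR1C1, an aldo-keto reductase that clears lipid aldehydes, had 27.4, 22.5 and 1.44 CPM in siMCT4 libraries 1, 2 and 3, against 4.94, 4.1 and 4.32 CPM in control libraries. The same 2 siMCT4 libraries held 9.29 and 7.47 CPM of AKR1B10, a related reductase that was at 0 CPM in siMCT4 library 3 and in all 3 controls. AKR1C2 had 10.1, 10.1 and 0.578 CPM in siMCT4 against 12.9, 13.2 and 12.5 CPM in control libraries, and AKR1B1 had 66, 58.7 and 38.5 CPM against 60.9, 65.6 and 66.2 CPM. AKR1C1 and AKR1C2 are near-identical copies, and how reads that match both were counted is not given, so their separate levels are uncertain. EPHX1, microsomal epoxide hydrolase, fell to 46.5, 43.8 and 27.7 CPM in siMCT4, against 59.9, 64.9 and 63.5 CPM in control libraries (adjusted p = 0.0193). HMOX1 was not lowest there, with its highest level of 1142 CPM in siMCT4 library 3.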
